A study of Rattus norvegicus with 26 samples.

Results

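Thoracic aortas of male rats of the spontaneously hypertensive strain, given low-dose Songling Xuemaikang (SXC) or saline, were compared on 6 low-dose arrays and 8 saline arrays, 14 of the 26 arrays of the study. The arrays were chosen by their sample titles alone. SXC is a Chinese herbal preparation of pine needle, kudzu root and nacre that is given for high blood pressure. The spontaneously hypertensive rat is an inbred strain that becomes hypertensive without surgery or a special diet. Every rat of both groups belonged to this strain, so no normotensive strain entered the comparison. The blood pressure of these rats was not examined here. Rats were dosed by mouth for 4 weeks with saline at 7.5 mL/kg or with SXC at 236.25 mg/kg and were killed at 28 days. The other arrays, 6 of SXC at 708.75 mg/kg and 6 of valsartan at 21.6 mg/kg, an angiotensin receptor blocker, are used only where values are set side by side. RNA was extracted from each aorta separately. The sources used here give neither the hour of tissue collection nor the ages of the rats. The comparison asks which genes differ in the aorta of rats that received the lower dose of SXC from those that received saline.

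The aorta is a conducting artery whose wall has a layer of endothelium, a media of smooth muscle between elastic sheets and an outer adventitia of fibroblasts, nerves and immune cells, set in fat. Its tone follows from substances that constrict smooth muscle, such as angiotensin II, endothelin and noradrenaline, and from nitric oxide and prostacyclin, which endothelium releases and which relax it. In hypertension the wall thickens, its matrix changes and immune cells collect in the adventitia and the fat around it. An array of a whole vessel reads all these cells together. In such bulk samples fewer cells of a type and less RNA per cell cannot be told apart.

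Each gene was measured by 1 or more probes on a 1-colour array, and a level is the log2 of a probe's processed signal minus the 75th percentile of that array. A level of 0 is therefore a bright probe, and a difference of 1 is a 2-fold change. Levels of different probes are not comparable with each other. Changes are low-dose SXC minus saline on this log2 scale, given ± SE from limma over 8 and 6 arrays, with p-values adjusted over all 22946 probes tested. A gene is given by its brightest probe and is said to rise or fall where its adjusted p was under 0.05. The number of arrays limits the precision of every value.

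The arrays themselves need a description before the genes. All 8 saline arrays were scanned on 1 day, and the low-dose arrays on 2 earlier days, 97 and 91 days before, so no day held both groups. Treatment and scan day cannot be told apart in any value below. A fit with scan day as a random block, cited for some genes, cannot separate them either. Detector gain was the same within 353 to 354 V, and 67.3 to 76.2% of gene probes were well above background on saline arrays against 70.0 to 77.0% on low-dose arrays (exact permutation test, two-sided, p = 0.873). The raw signal of negative control spots did not overlap, at 33.7 to 40.9 on saline arrays and 42.6 to 73.3 on low-dose arrays. Their processed log2 signal did overlap, at 1.58 to 2.46 and 1.01 to 2.65. The part of this background in the changes of dim probes was not tested. Spike-in controls, which lay near background, stood at -7.48 ± 0.24 (SD, n = 8) and -7.32 ± 0.43 (SD, n = 6) relative to the 75th percentile (exact permutation test, two-sided, p = 0.376). The 75th percentile itself, to which every level is relative, differed: before scaling it stood at 10.38 ± 0.10 (SD, n = 8) on the log2 scale on saline arrays and at 10.02 ± 0.16 (SD, n = 6) on low-dose arrays (exact permutation test, two-sided, p = 0.00133). Saline arrays 1 and 5, 2 and 6, and 3 and 7 resembled each other across slides, with correlations of their deviations of 0.83, 0.80 and 0.92. Saline array 4 lay within an SD of 0.16 of the average of arrays 1 and 2, and array 8 within 0.20 of the average of 2 and 3. No low-dose array came nearer than 0.26 to an average of a pair of others. The labels describe 8 separate saline rats, and whether these 8 arrays are 8 independent animals was not tested. Counts are therefore also given with saline as 3 averages, of the pairs 1 and 5, 2 and 6, and 3 and 7.

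**Figure D1:**
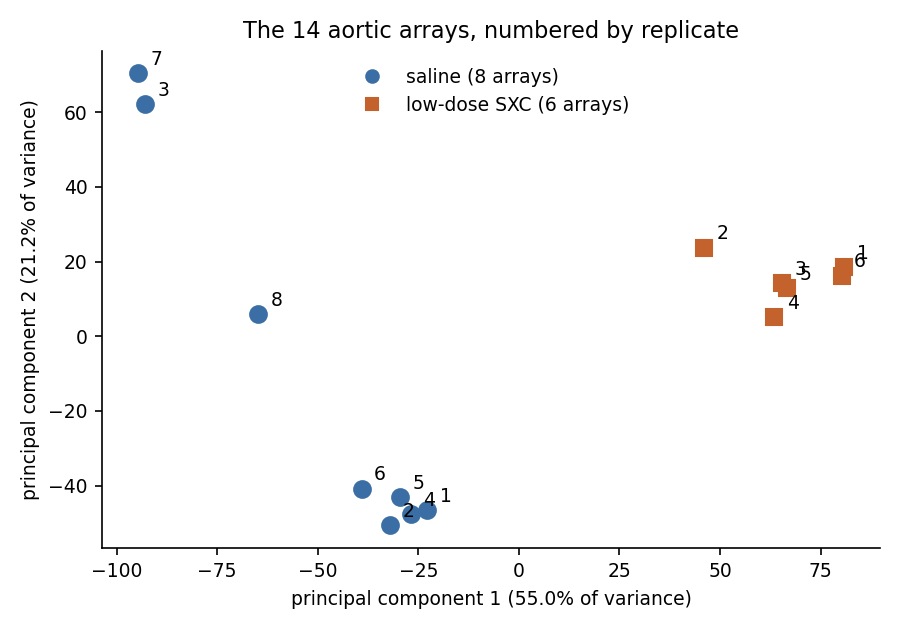
Principal components of the 14 arrays over 18654 probes well above background on every array; points are arrays, numbered by replicate, blue circles saline and orange squares low-dose SXC. The first component holds 55.0% of the variance and separates the groups, with saline at negative and low-dose at positive values; the second holds 21.2% and separates saline arrays 3 and 7 from the other saline arrays, with array 8 between them.

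A large share of the array differed between the groups. Of 22946 probes, 12714 passed the threshold, or 55.4%, with 6712 higher (29.3%) and 6002 lower (26.2%) with low-dose SXC. At least 2-fold changes were 2828 rises (12.3%) and 2359 falls (10.3%), and on 7277 probes (31.7%) the groups did not overlap. With saline as 3 averages 9579 probes passed, 41.7%, and 9374 of them were among the 12714, none in the opposite direction. The median change over all probes was 0.07. The 4589 brightest probes leaned upward, with 41.9% higher and 20.7% lower.

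Counted as 1 probe for each named gene, 57.4% of 11864 genes passed, 29.6% rose and 27.8% fell, and with saline as 3 averages 21.8% and 22%. These shares are the background for every list below. A list near them on both sides shows nothing that the array as a whole does not. Lists and genes were chosen with earlier results of these data known, so their counts describe and do not test.

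Many genes carried several probes, and these often disagreed. Of 776 such genes whose brightest probe rose, the next brightest probe also rose in 212 (27.3%), fell in 197 (25.4%) and passed in neither direction in 367. Falls were shared more often: of 402 genes whose brightest probe fell, the next also fell in 229 (57.0%) and rose in 47 (11.7%). A rise given below from a single probe is thus less often borne out by a further probe than a fall. Where a further tested probe of a named gene differed in its call or sign, its value is given.

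**Figure D2:**
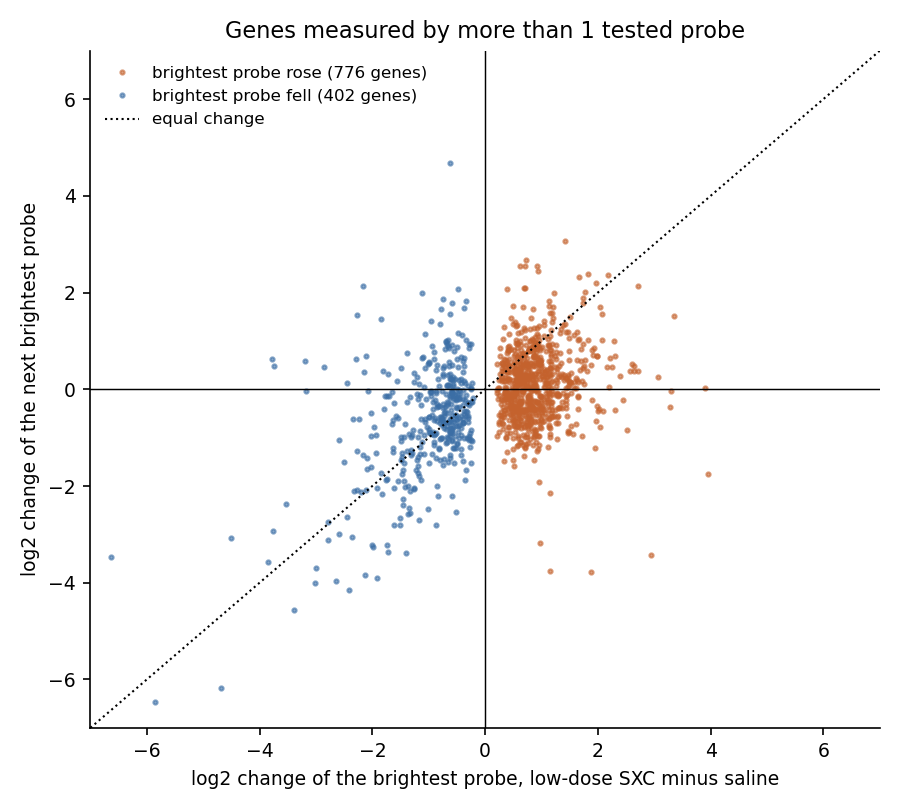
Log2 change, low-dose SXC minus saline, of the brightest probe of a gene (horizontal) and of the next brightest (vertical), for 776 genes whose brightest probe rose (orange) and 402 whose brightest probe fell (blue). Many rises have a next probe at or below 0, while most falls have a next probe that also lies below 0.

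**Figure D3:**
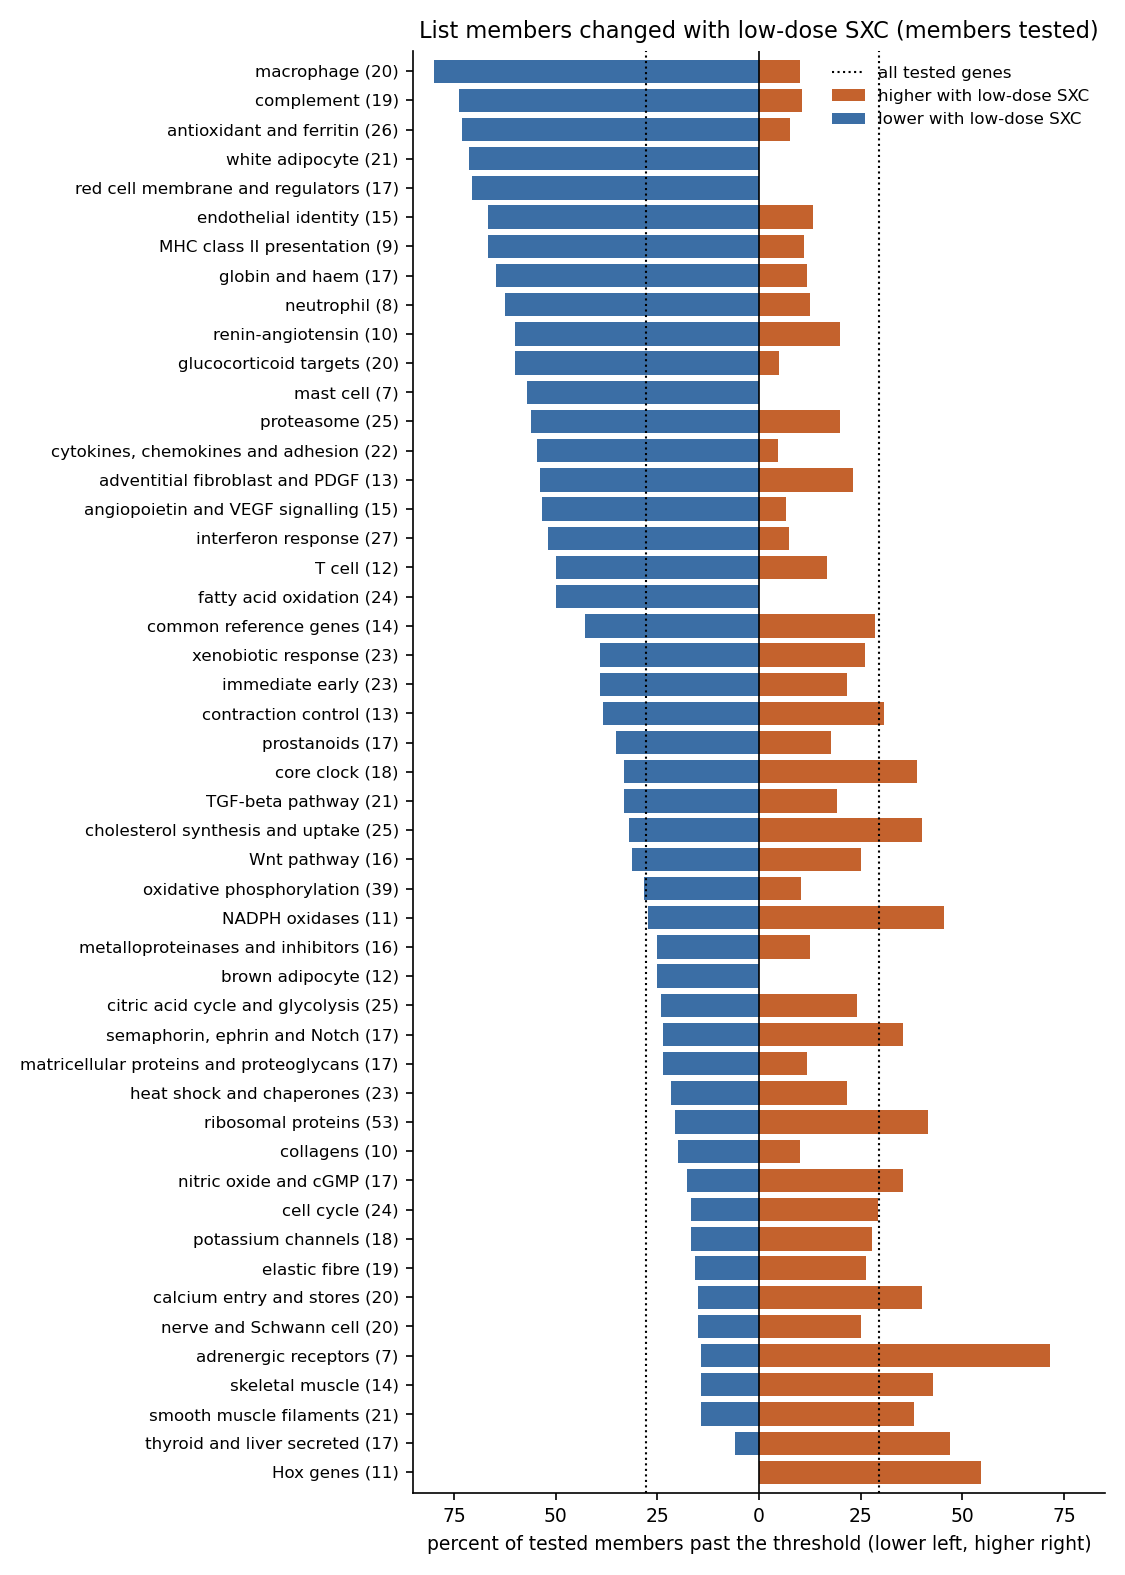
Share of the tested members of each list with at least 7 tested members that rose (orange, right) or fell (blue, left); dotted lines mark all tested genes, 29.6% and 27.8%. Macrophage, complement, antioxidant, white adipocyte and red cell lists extend farthest to the left, and adrenergic receptors, Hox genes and liver-secreted proteins farthest to the right.

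The systems that set vascular tone changed unevenly. Of the renin-angiotensin list, 2 rose and 6 fell of 10 measured members (median change -0.51). The rat carries 2 genes for the type 1 angiotensin receptor, through which angiotensin II constricts vessels. Agtr1a, the form most abundant in most rat tissues, ranged from -0.41 to 0.41 (median 0.00) in the saline group and from -2.12 to -1.35 (median -1.60) in the low-dose group. Agtr1b ranged from -2.64 to -1.02 (median -1.83) in the saline group and from -0.37 to 0.41 (median 0.08) in the low-dose group. The groups did not overlap for either gene, and the changes were opposite, a fall by 1.70 ± 0.15 (adjusted p = 3.73e-07) for Agtr1a and a rise of 1.90 ± 0.26 (adjusted p = 2.31e-05) for Agtr1b. Angiotensinogen, Agt, the precursor of angiotensin II, ranged from -1.92 to 2.18 (median 0.36) in the saline group and from -2.73 to -1.34 (median -2.06) in the low-dose group and fell by 2.27 ± 0.63 (adjusted p = 0.00692), with overlapping groups. Cma1, a mast cell chymase that can form angiotensin II, fell by 4.01 ± 0.52 (adjusted p = 1.55e-05), from levels of -1.79 to 0.68 (median -0.45) to levels of -5.48 to -2.36 (median -4.98). Mme, the peptidase neprilysin, fell by 2.38 ± 0.59 (adjusted p = 0.0033) with overlap, and Thop1, another peptidase that cleaves angiotensin I, rose by 1.12 ± 0.21 (adjusted p = 0.000343). Ace, the converting enzyme itself, did not pass on its brightest probe (-0.18 ± 0.22, adjusted p = 0.514). Its other tested probe changed by -0.96 (adjusted p = 0.00923), and without saline arrays 3 and 7 the brightest probe also passed as lower, at -0.44.

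In the endothelin system the peptide, its converting enzyme and 1 receptor were lower. Endothelin 1 constricts smooth muscle through the A receptor, and through the B receptor on endothelium it also releases nitric oxide. Edn1 ranged from -2.97 to -1.99 (median -2.40) in the saline group and from -5.33 to -4.23 (median -4.88) in the low-dose group, a fall by 2.40 ± 0.20 (adjusted p = 2.13e-07). Ece1, which cuts the precursor to its active form, fell by 1.78 ± 0.28 (adjusted p = 9.06e-05). Ednrb ranged from -3.56 to -1.77 (median -2.41) in the saline group and from -6.18 to -4.83 (median -5.91) in the low-dose group and fell by 3.21 ± 0.30 (adjusted p = 7.71e-07), with 4 of 6 low-dose arrays well above background. No low-dose array overlapped the saline range for these 3 genes. Ednra, the A receptor, rose on its brightest probe from -3.02 to -2.31 (median -2.91) to -1.80 to -1.15 (median -1.50), by 1.30 ± 0.15 (adjusted p = 4.23e-06), while its other tested probe changed by -0.11. Of the list, 1 rose and 3 fell of 5 measured members.

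Receptors for noradrenaline and adrenaline mostly rose: 5 rose and 1 fell of 7 measured members, with 4 rises left when saline was taken as 3 averages. Adra1d, the alpha-1 receptor best known for contracting the rat aorta, ranged from -0.31 to 0.62 (median 0.11) in the saline group and from 1.24 to 2.02 (median 1.44) in the low-dose group. It rose by 1.36 ± 0.16 (adjusted p = 5.39e-06) without overlap. Adra1a, its relative in smaller arteries, rose by 2.31 ± 0.28 (adjusted p = 8.43e-06), from -2.15 to -1.03 (median -1.74) to -0.67 to 1.47 (median 0.60). Adrb1, known mainly from the heart, rose by 1.23 ± 0.22 (adjusted p = 0.000238), but its call was lost in 1 fit over all 26 arrays.

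Nitric oxide is made in endothelium by Nos3 with a cofactor whose synthesis begins with Gch1, and it acts in smooth muscle through guanylate cyclase and cGMP. Both enzymes of the first step were lower. Nos3 ranged from -2.68 to -2.14 (median -2.48) in the saline group and from -4.97 to -4.25 (median -4.67) in the low-dose group, a fall by 2.19 ± 0.13 (adjusted p = 2.03e-08). Gch1 ranged from -3.81 to -3.08 (median -3.50) in the saline group and from -6.55 to -5.15 (median -6.22) in the low-dose group, a fall by 2.64 ± 0.21 (adjusted p = 1.55e-07), with 4 of 6 low-dose arrays well above background. Neither gene's groups overlapped. Downstream, Gucy1a1, a subunit of the cyclase, was 0.53 ± 0.17 higher (adjusted p = 0.0142, with overlap, and not called with scan day as a random block). The phosphodiesterases that break cGMP down were higher as well: Pde1a rose by 1.40 ± 0.25 (adjusted p = 0.000233) and Pde5a by 0.97 ± 0.30 (adjusted p = 0.0126). Arg1, an arginase that competes for the substrate of nitric oxide synthase, rose by 1.75 ± 0.30 (adjusted p = 0.000185), from -2.89 to -1.09 (median -1.91) to -0.66 to 0.41 (median -0.26). Ddah1, which degrades an inhibitor of the synthase, rose by 1.65 ± 0.33 on its brightest probe (adjusted p = 0.000656) and changed by -0.16 on another, and Ddah2 rose by 0.59 ± 0.12 (adjusted p = 0.000591). Over the list, 6 rose and 3 fell of 17 measured members (median 0.30), close to the background on both sides.

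Of the prostanoid list, 3 rose and 6 fell of 17 measured members. Ptgis, prostacyclin synthase, ranged from 1.82 to 3.58 (median 3.46) in the saline group and from 1.55 to 1.91 (median 1.81) in the low-dose group. The low-dose values lay near the lowest saline value, and the fall was by 1.26 ± 0.29 (adjusted p = 0.00203). Tbxas1, thromboxane synthase, fell by 1.41 ± 0.18 (adjusted p = 1.12e-05) without overlap, whereas Tbxa2r, the thromboxane receptor, rose by 0.94 ± 0.23 (adjusted p = 0.00282). Ptgds, a prostaglandin D synthase, rose by 1.34 ± 0.30 (adjusted p = 0.00142).

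Genes that mark endothelium were lower in 10 of 15 measured members, with a median change of -2.17, and 2 members rose. With saline as 3 averages 9 fell and 2 rose. Icam2, an adhesion molecule at endothelial junctions, ranged from -2.32 to -1.92 (median -2.17) in the saline group and from -6.43 to -5.53 (median -5.80) in the low-dose group. Its fall by 3.69 ± 0.13 (adjusted p = 2.85e-10) was large against a spread of less than 1 log2 unit in either group, and 5 of 6 low-dose arrays were well above background. Cldn5, the tight junction claudin of endothelium, ranged from -0.65 to 0.57 (median -0.30) in the saline group and from -4.45 to -3.10 (median -4.12) in the low-dose group and fell by 3.77 ± 0.28 (adjusted p = 8.91e-08). Pecam1, a junction protein and general endothelial marker, ranged from 1.12 to 3.27 (median 2.71) in the saline group and from -0.61 to 0.60 (median 0.06) in the low-dose group and fell by 2.42 ± 0.34 (adjusted p = 2.79e-05). Esam, another junction protein, fell by 2.56 ± 0.18 (adjusted p = 5.32e-08). Sox17, a transcription factor of arterial endothelium, fell by 2.22 ± 0.21 (adjusted p = 7.97e-07), and Emcn, a surface mucin, by 2.17 ± 0.53 (adjusted p = 0.00284). None of these 6 genes had overlapping groups. The 2 rises were small: Cdh5, endothelial cadherin, ranged from -3.58 to -3.0 (median -3.26) in the saline group and from -3.15 to -2.0 (median -2.61) in the low-dose group and rose by 0.72 ± 0.16 (adjusted p = 0.00159), and Sox18, a relative of Sox17, rose by 0.72 ± 0.12 (adjusted p = 0.000126).

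Angiopoietin 1, made by smooth muscle and pericytes, keeps endothelium quiet through the receptor Tek (Tie2), angiopoietin 2 can oppose it, and Tie1 is a co-receptor. All 4 genes were lower. Tek ranged from -3.04 to -2.11 (median -2.65) in the saline group and from -8.60 to -6.15 (median -7.63) in the low-dose group. Every saline array was well above background for Tek but only 1 of 6 low-dose arrays was, so the fall by 4.86 ± 0.32 (adjusted p = 3.42e-08) reaches down to background and its size is uncertain. Angpt1 ranged from -0.41 to 0.37 (median -0.08) in the saline group and from -2.64 to -2.29 (median -2.40) in the low-dose group, well above background throughout, and fell by 2.36 ± 0.13 (adjusted p = 5.81e-09). Angpt2 ranged from -1.11 to -0.21 (median -0.69) in the saline group and from -1.77 to -1.48 (median -1.63) in the low-dose group and fell by 0.92 ± 0.15 (adjusted p = 0.000112). Tie1 fell by 2.13 ± 0.25 (adjusted p = 5.68e-06) with 2 of 6 low-dose arrays well above background, and it did not pass under normexp background correction. Of the whole angiopoietin and VEGF list, 1 rose and 8 fell of 15 measured members (median -0.90), against 29.6% and 27.8% of all genes. Vegfa, the growth factor of endothelium, ranged from 1.99 to 4.81 (median 2.54) in the saline group and from 1.14 to 2.18 (median 1.49) in the low-dose group and fell by 1.49 ± 0.47 (adjusted p = 0.0149), with overlap. Its 3 other probes changed by -0.98, -1.91 and -1.56, and its call was lost with scan day as a random block. Vegfc, which acts mainly on lymphatic endothelium, was the rise, by 0.72 ± 0.17 (adjusted p = 0.0025).

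**Figure D4:**
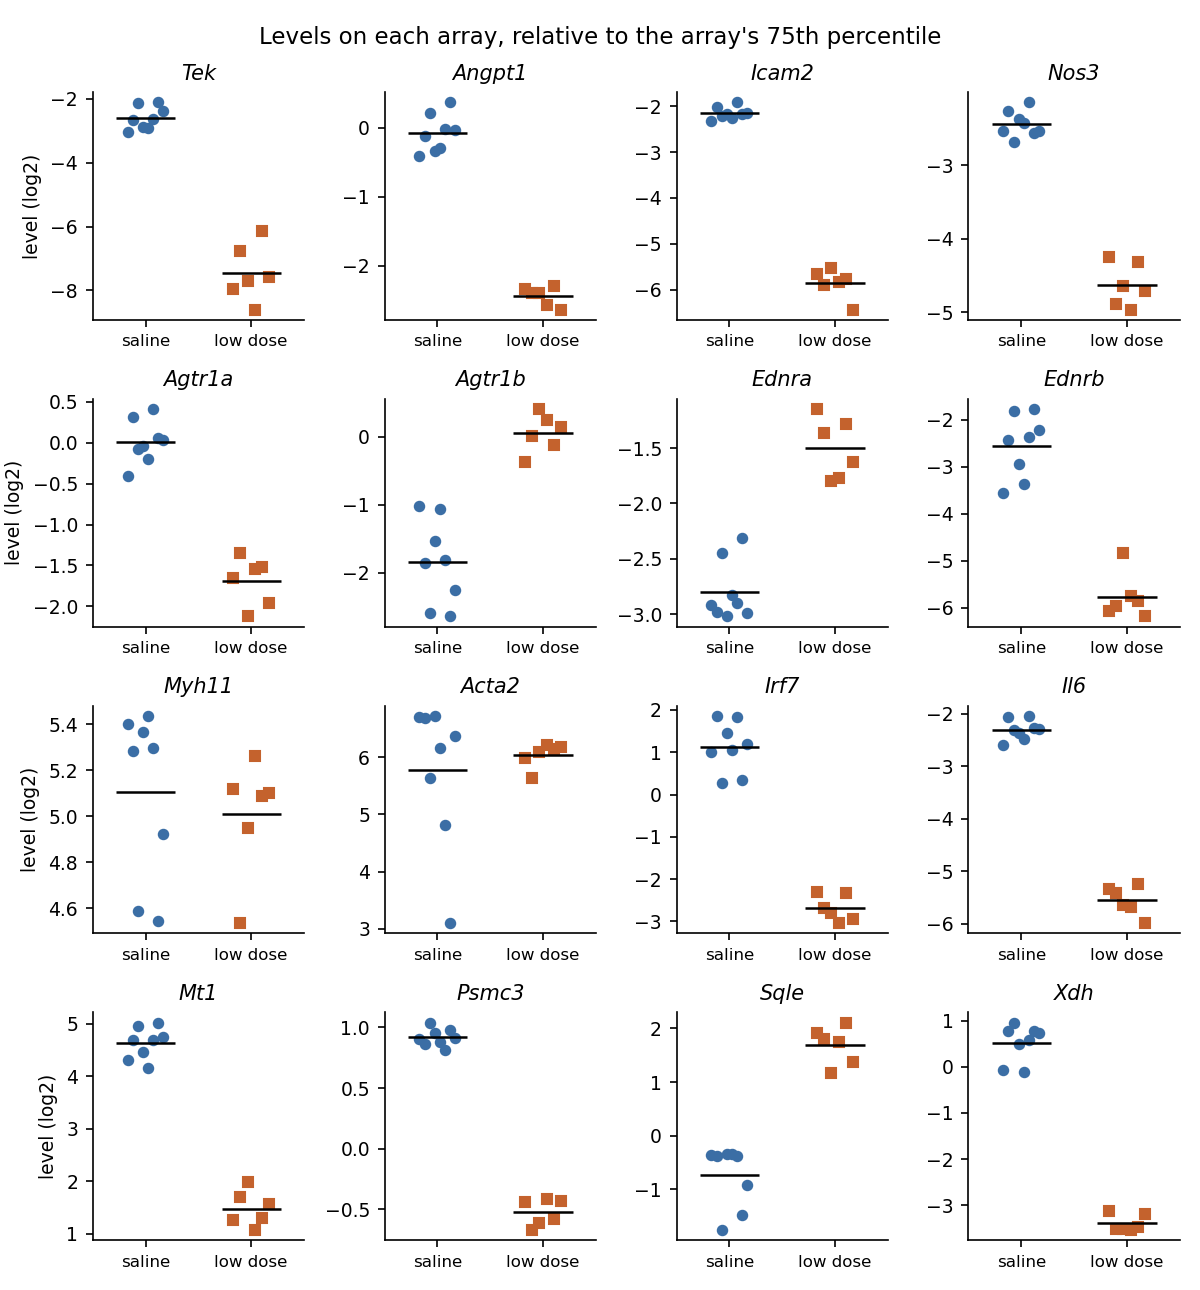
Levels of 16 genes on each array (log2 signal relative to the array's 75th percentile), saline as blue circles and low-dose SXC as orange squares, with the group mean as a line; each panel has its own vertical scale. Myh11 and Acta2 overlap between the groups, and the other 14 genes do not.

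Notch signalling, in which ligands on 1 cell act on receptors of its neighbour, is known for its part in arterial smooth muscle and endothelium, and its measured members moved both ways. Notch3, the receptor of arterial smooth muscle, ranged from -2.93 to -1.93 (median -2.48) in the saline group and from -1.27 to 0.05 (median -0.42) in the low-dose group and rose by 1.94 ± 0.21 (adjusted p = 2.42e-06). Notch4, the endothelial receptor, ranged from -3.54 to -1.02 (median -2.41) in the saline group and from -4.93 to -4.31 (median -4.71) in the low-dose group and fell by 2.34 ± 0.38 (adjusted p = 0.000106). Neither gene's groups overlapped. The Notch targets Hey1 and Hes1 rose by 2.60 ± 0.35 (adjusted p = 2.24e-05) and 1.31 ± 0.19 (adjusted p = 4.06e-05), and the ligand Jag1 by 1.15 ± 0.30 (adjusted p = 0.00509). Efnb2, an ephrin of arterial cells, rose by 1.45 ± 0.16 (adjusted p = 3.71e-06). The rise of Hey1 was 3.83 on the low-dose arrays scanned first and 1.99 on those scanned second.

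Of the best-known contractile genes of smooth muscle, Acta2, Myh11, Tagln and Cnn1 did not pass the threshold in either direction. Lmod1, a further smooth muscle marker, fell by 0.63 (adjusted p = 0.00632) on its brightest probe, with overlapping groups. Its other probe changed by 0.57 and did not pass. Acta2, smooth muscle actin, ranged from 3.10 to 6.72 (median 6.27) in the saline group and from 5.63 to 6.21 (median 6.12) in the low-dose group and did not pass (0.26 ± 0.48, adjusted p = 0.661). Myh11, smooth muscle myosin heavy chain, ranged from 4.54 to 5.44 (median 5.29) in the saline group and from 4.53 to 5.26 (median 5.10) in the low-dose group (-0.10 ± 0.17, adjusted p = 0.648). Tagln and Cnn1, actin-binding proteins of the same cells, changed by -0.26 ± 0.22, adjusted p = 0.335 and -0.01 ± 0.35, adjusted p = 0.99. The saline arrays were spread more widely than the low-dose arrays for Acta2 and Tagln, and without saline arrays 3 and 7 Tagln and Cnn1 passed as lower. Across the filament list 8 rose and 3 fell of 21 measured members (median 0.33), and 7 rose and 6 fell without those 2 arrays. Tpm2, a tropomyosin, fell by 0.89 ± 0.18 (adjusted p = 0.000748), from 4.64 to 5.76 (median 5.35) to 4.14 to 4.58 (median 4.35), and Des, desmin, fell by 1.01 ± 0.27 (adjusted p = 0.00602). Mylk, the kinase that starts contraction by phosphorylating myosin, rose by 1.04 ± 0.26 (adjusted p = 0.00305), with a further probe at 0.41. Smtn, smoothelin, rose by 1.16 ± 0.28 (adjusted p = 0.0029), with a further probe at 0.53. Myh10, a non-muscle myosin, ranged from 0.82 to 2.52 (median 1.91) in the saline group and from 3.19 to 3.42 (median 3.33) in the low-dose group and rose by 1.55 ± 0.26 (adjusted p = 0.000158).

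Myocd, the coactivator that switches on contractile genes, was 0.94 ± 0.27 higher (adjusted p = 0.00826). Rgs5, a regulator that damps receptor signals in mural cells, ranged from -2.43 to -0.09 (median -1.25) in the saline group and from -3.74 to -3.03 (median -3.27) in the low-dose group and fell by 2.08 ± 0.34 (adjusted p = 0.000139) without overlap. Of the calcium list, 8 rose and 3 fell of 20 measured members, with 6 and 3 when saline was taken as 3 averages. Calcium enters smooth muscle through channels and is released from stores by Itpr1 and pumped back by Atp2a2. Itpr1 ranged from 4.35 to 4.99 (median 4.71) in the saline group and from 5.74 to 5.93 (median 5.80) in the low-dose group and rose by 1.14 ± 0.09 (adjusted p = 2.36e-07), but another of its probes changed by -0.99, so the gene has no settled direction here. Atp2a2 rose by 0.85 ± 0.13 (adjusted p = 7.75e-05), with another probe at 0.48. Casq2, a store protein that binds calcium, rose by 1.02 ± 0.24 (adjusted p = 0.00243), and Trpc6, an entry channel, fell by 1.14 ± 0.18 (adjusted p = 7.83e-05).

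Potassium channels hold the membrane polarised and oppose constriction, and 5 rose and 3 fell of 18 measured members (median 0.03). Kcnk2, a stretch-gated channel, ranged from -3.72 to -1.33 (median -3.03) in the saline group and from -0.16 to 0.94 (median 0.35) in the low-dose group and rose by 3.06 ± 0.40 (adjusted p = 1.7e-05). Its groups did not overlap, and its 2 other probes changed by 0.25 and 2.61. Kcnj8, the pore of the vascular ATP-sensitive channel, ranged from 1.83 to 2.04 (median 1.91) in the saline group and from 2.31 to 3.10 (median 2.73) in the low-dose group and rose by 0.75 ± 0.11 (adjusted p = 5.45e-05). Kcnq1, a voltage-gated channel, rose by 1.62 ± 0.21 (adjusted p = 1.36e-05).

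The main fibrillar collagens, which give the wall its tensile strength, did not pass the threshold with all arrays. Col1a1 ranged from 5.44 to 6.72 (median 6.59) in the saline group and from 6.47 to 6.69 (median 6.59) in the low-dose group (0.25 ± 0.20, adjusted p = 0.293), with another probe at -0.09. Col3a1 ranged from 5.76 to 6.82 (median 6.62) in the saline group and from 5.94 to 6.40 (median 6.23) in the low-dose group (-0.27 ± 0.17, adjusted p = 0.184). It passed as lower under quantile normalisation (-0.45), in the authors' deposited table (-0.48), with the replicate block (-0.39), without saline array 7 (-0.37) and without saline arrays 3 and 7 (-0.48). The last 3 settings are not separate checks, because saline array 7 does not inform the change in any of them. Of 10 measured collagens, 1 rose and 2 fell, and 1 rose and 0 fell with saline as 3 averages. Without saline arrays 3 and 7, the 2 that stood apart in the second principal component, 1 rose and 6 fell. More collagens thus passed as lower when those arrays were left out than when they were kept. The rise was Col4a1, a basement membrane collagen, at 0.56 ± 0.07 (adjusted p = 6.17e-06), with another probe at -0.43. Elastin, Eln, was 0.50 ± 0.17 higher (adjusted p = 0.0199), while another probe changed by 1.73 (adjusted p = 0.000954). The call of the brightest Eln probe was lost with saline as 3 averages and with scan day as a random block. It was also lost under quantile normalisation (0.37), in the authors' deposited table (0.40) and with the low-dose arrays of either scan day alone.

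Among the other elastic fibre genes both directions appeared, with 5 rose and 3 fell of 19 measured members, 3 and 3 with saline as 3 averages, and 6 and 9 without saline arrays 3 and 7. Efemp1, fibulin 3, ranged from 0.46 to 1.56 (median 1.43) in the saline group and from -1.04 to -0.26 (median -0.61) in the low-dose group and fell by 1.82 ± 0.20 (adjusted p = 3.46e-06). Loxl2, an enzyme that crosslinks collagen and elastin, fell by 1.67 ± 0.17 (adjusted p = 1.72e-06). Emilin1, which sits at the edge of elastic fibres, ranged from 0.57 to 1.99 (median 1.69) in the saline group and from 2.89 to 3.26 (median 2.97) in the low-dose group and rose by 1.57 ± 0.22 (adjusted p = 3.64e-05), with another probe at 1.12. Mfap4, a microfibril protein, rose by 1.36 ± 0.39 (adjusted p = 0.00828). Of the proteoglycans, Dcn, decorin, ranged from 3.56 to 5.23 (median 4.69) in the saline group and from 1.93 to 2.46 (median 2.19) in the low-dose group and fell by 2.38 ± 0.26 (adjusted p = 2.59e-06). Prg4, lubricin, fell by 2.46 ± 0.29 (adjusted p = 5.76e-06). Vcan, versican, rose by 1.43 ± 0.26 (adjusted p = 0.000322) on its brightest probe and changed by -0.22 on another.

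Enzymes that cut the matrix and their inhibitors gave 2 rose and 4 fell of 16 measured members, and 2 rose and 7 fell without saline arrays 3 and 7. Adamts5, which cleaves versican, ranged from -0.83 to -0.05 (median -0.52) in the saline group and from -3.47 to -2.69 (median -3.28) in the low-dose group and fell by 2.75 ± 0.16 (adjusted p = 1.25e-08). Its groups were far apart against their spread. Timp4, an inhibitor of metalloproteinases, fell by 1.47 ± 0.13 (adjusted p = 4.93e-07), and its other probe changed by -1.40. Mmp14, a membrane-bound metalloproteinase, rose by 1.07 ± 0.20 (adjusted p = 0.000418), from 2.78 to 3.96 (median 3.91) to 4.54 to 4.80 (median 4.65).

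The TGF-beta family drives matrix synthesis in the vessel wall, and its genes moved both ways. The list gave 4 rose and 7 fell of 21 measured members, the same counts as with saline as 3 averages. Tgfbi, a matrix protein named for its induction by TGF-beta, ranged from 0.36 to 1.1 (median 0.62) in the saline group and from -2.03 to -1.81 (median -1.86) in the low-dose group and fell by 2.57 ± 0.12 (adjusted p = 2.24e-09). Bmp4, a related ligand, fell by 1.92 ± 0.20 (adjusted p = 2.16e-06). Neither gene's groups overlapped. The type I receptor Tgfbr1 rose by 1.19 ± 0.20 (adjusted p = 0.000151), the inhibitor Smad7 by 1.13 ± 0.22 (adjusted p = 0.000564), the BMP target Id3 by 1.33 ± 0.26 (adjusted p = 0.000513) and the ligand subunit Inhba by 1.16 ± 0.19 (adjusted p = 0.000133).

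Adventitial fibroblast and PDGF genes were lower in 7 of 13 measured members and higher in 3 (median -1.15), and the counts were the same with saline as 3 averages. Pi16, a marker of adventitial fibroblasts, ranged from 2.40 to 3.59 (median 2.98) in the saline group and from -0.36 to 0.04 (median -0.16) in the low-dose group and fell by 3.17 ± 0.17 (adjusted p = 7.45e-09) on its brightest probe, while its other probe changed by -0.04. Scara5, a ferritin receptor of the same cells, ranged from 3.41 to 4.34 (median 3.90) in the saline group and from 1.43 to 1.94 (median 1.62) in the low-dose group and fell by 2.28 ± 0.15 (adjusted p = 3.8e-08), with -2.08 on a further probe. Pdgfra, the receptor that marks fibroblasts, ranged from 0.54 to 2.64 (median 2.01) in the saline group and from 0.32 to 0.68 (median 0.58) in the low-dose group and fell by 1.28 ± 0.32 (adjusted p = 0.00326). Fap, a fibroblast surface protease, fell by 1.69 ± 0.18 (adjusted p = 2.51e-06) and Gsn, gelsolin, by 1.59 ± 0.20 (adjusted p = 1.35e-05). Col14a1, a collagen used as a marker of these cells, did not pass on its brightest probe (-0.26 ± 0.32, adjusted p = 0.51), but its other tested probe changed by -1.62 (adjusted p = 0.00036). Without saline arrays 3 and 7 the brightest probe passed as lower, at -0.69.

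In the Wnt pathway 4 rose and 5 fell of 16 measured members, near the background, and 5 rose and 8 fell without saline arrays 3 and 7. Dkk2, a secreted Wnt inhibitor, was well above background on 8 of 8 saline arrays and on none of the 6 low-dose arrays, and was at least 4.97-fold lower (adjusted p = 7.93e-08, measured means -4.06 and -7.83). Here and below, "at least" is the bright group's mean over the dim group's mean, with each dim array set no lower than the dimmest signal found well above background on it. Wnt11, a ligand, ranged from -2.47 to 0.30 (median -1.54) in the saline group and from -4.20 to -3.32 (median -3.93) in the low-dose group and fell by 2.60 ± 0.41 (adjusted p = 9.84e-05), with another probe at -1.05 that did not pass. Fzd1, a receptor, rose by 1.5 ± 0.15 (adjusted p = 1.38e-06), and Dkk3, an abundant relative of Dkk2, by 1.01 ± 0.24 (adjusted p = 0.00217).

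Immune cell genes were mostly lower. Macrophages are the main immune cells of the resting adventitia, where they clear debris through scavenger receptors and the complement component C1q. Of the macrophage list, 16 fell and 2 rose of 20 measured members (median -2.0), and 16 fell and 1 rose with saline as 3 averages. Cd163, the receptor for haptoglobin-bound haemoglobin, ranged from -1.73 to -0.39 (median -1.17) in the saline group and from -4.34 to -3.81 (median -3.95) in the low-dose group and fell by 2.91 ± 0.23 (adjusted p = 1.57e-07). Cd14, the co-receptor for bacterial lipopolysaccharide, ranged from -0.46 to 0.02 (median -0.30) in the saline group and from -2.34 to -2.06 (median -2.27) in the low-dose group and fell by 1.97 ± 0.10 (adjusted p = 3.23e-09). Ctss, a lysosomal protease used in antigen processing, ranged from -0.06 to 1.59 (median 0.69) in the saline group and from -2.33 to -2.12 (median -2.21) in the low-dose group and fell by 2.94 ± 0.24 (adjusted p = 2.36e-07). The low-dose arrays lay close together for Cd14 and Ctss, and the groups of these 3 genes did not overlap. Cd68, a lysosomal marker, fell by 1.93 ± 0.21 (adjusted p = 2.59e-06). The chains of C1q moved together: C1qa fell by 2.19 ± 0.25 (adjusted p = 3.91e-06), C1qb by 2.03 ± 0.23 (adjusted p = 4.5e-06) and C1qc by 2.09 ± 0.23 (adjusted p = 2.68e-06). Csf1r, the receptor on which macrophages depend, went the other way, ranging from -2.85 to -1.53 (median -1.99) in the saline group and from -1.83 to -1.0 (median -1.58) in the low-dose group. Its rise of 0.56 ± 0.19 (adjusted p = 0.0211) was lost with scan day as a random block and in 1 fit over all 26 arrays. A further Csf1r probe changed by 0.21. Aif1 (Iba1), a cytoskeletal protein used to stain macrophages, was the other rise, by 0.31 ± 0.11 (adjusted p = 0.0293) with overlap on its brightest probe. Its further probe changed by -0.72, and the rise was not called with saline as 3 averages.

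MHC class II molecules show peptides to helper T cells, and 6 of 9 measured genes of this group fell. Cd74, the invariant chain, ranged from -0.73 to 1.01 (median 0.15) in the saline group and from -3.61 to -2.99 (median -3.04) in the low-dose group and fell by 3.33 ± 0.26 (adjusted p = 1.44e-07). RT1-Da, an alpha chain of rat class II, ranged from 0.10 to 1.69 (median 0.98) in the saline group and from -2.42 to -1.53 (median -1.96) in the low-dose group and fell by 2.97 ± 0.26 (adjusted p = 4e-07). Neither overlapped. Ciita, the transcription factor that switches class II genes on, was 0.58 ± 0.19 higher (adjusted p = 0.0185), well above background on 5 arrays of each group, and was not called with saline as 3 averages. Ptprc (CD45), the common leukocyte antigen, ranged from -1.06 to -0.24 (median -0.79) in the saline group and from -3.42 to -2.73 (median -3.03) in the low-dose group and fell by 2.32 ± 0.15 (adjusted p = 3.53e-08), and a second probe changed by -2.11.

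Interferon response genes are switched on by virus or interferon through factors that bind a short element in their promoters. Of this list, 2 rose and 14 fell of 27 measured members (median -0.51), with 11 falls and 2 rises when saline was taken as 3 averages. The element was searched as GAAANNGAAA on both strands, from 250 bases before to 50 after the start of each gene in RefSeq (build GRCr8). It was present in 13 of the 22 listed genes with a promoter there, against 3.77% of all 27457 promoters. Of those 13 genes 9 fell and 1 rose, and of the 9 without it 1 fell. A match describes these letters only. The 160 bases before the start are shown for 3 genes that fell and for Gbp5, which rose, with the match in capitals as its reverse complement reads on the gene's own strand.
Irf7, chr1:205800024-205800183, minus strand: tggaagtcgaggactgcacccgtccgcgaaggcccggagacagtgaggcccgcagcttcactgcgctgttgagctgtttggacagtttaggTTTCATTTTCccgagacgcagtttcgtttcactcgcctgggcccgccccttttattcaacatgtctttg
Rsad2, chr6:48788121-48788280, minus strand: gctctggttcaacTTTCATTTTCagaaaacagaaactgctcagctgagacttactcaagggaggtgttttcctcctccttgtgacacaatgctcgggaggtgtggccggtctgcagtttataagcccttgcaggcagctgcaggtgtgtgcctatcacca
Ifit3, chr1:241527166-241527325, plus strand: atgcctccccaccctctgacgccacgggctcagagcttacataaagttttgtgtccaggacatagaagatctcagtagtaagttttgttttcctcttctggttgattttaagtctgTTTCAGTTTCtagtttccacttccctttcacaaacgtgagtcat
Gbp5, chr2:233910839-233910998, plus strand: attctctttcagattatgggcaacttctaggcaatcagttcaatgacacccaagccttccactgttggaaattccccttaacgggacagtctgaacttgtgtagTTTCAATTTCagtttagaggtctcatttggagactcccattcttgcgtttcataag

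Relative to the start, the match begins at base -69 in Irf7, -147 in Rsad2, -44 in Ifit3 and -56 in Gbp5. Irf7, the factor that amplifies the interferon response, ranged from 0.28 to 1.86 (median 1.13) in the saline group and from -3.04 to -2.30 (median -2.74) in the low-dose group and fell by 3.81 ± 0.25 (adjusted p = 3.52e-08). Rsad2, viperin, an antiviral enzyme, ranged from -0.18 to 2.55 (median 1.83) in the saline group and from -3.22 to -1.98 (median -2.28) in the low-dose group and fell by 4.04 ± 0.44 (adjusted p = 2.75e-06). Ifit3, which binds foreign RNA complexes, ranged from -1.67 to -0.32 (median -1.46) in the saline group and from -5.19 to -2.71 (median -4.87) in the low-dose group and fell by 3.37 ± 0.37 (adjusted p = 2.91e-06). The groups of these 3 genes did not overlap, although low-dose array 1 stood above the other low-dose arrays for Ifit3. Isg15, a ubiquitin-like modifier, fell by 0.72 ± 0.08 (adjusted p = 4.62e-06). Gbp5, a guanylate-binding protein, rose from -1.17 to -0.68 (median -0.83) to 0.01 to 0.69 (median 0.12), by 1.09 ± 0.11 (adjusted p = 1.86e-06). A further Gbp5 probe changed the other way, by -0.57, so this gene has no settled direction here.

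Cytokines, chemokines and adhesion molecules gave 1 rose and 12 fell of 22 measured members (median -0.89). Il6, interleukin 6, ranged from -2.60 to -2.04 (median -2.30) in the saline group and from -5.98 to -5.24 (median -5.53) in the low-dose group and fell by 3.24 ± 0.13 (adjusted p = 8.21e-10), with 5 of 6 low-dose arrays well above background. Cxcl1, which draws neutrophils, ranged from -0.85 to -0.43 (median -0.57) in the saline group and from -3.57 to -2.57 (median -2.90) in the low-dose group and fell by 2.39 ± 0.16 (adjusted p = 3.86e-08). Ccl5, which draws T cells and monocytes, fell by 1.99 ± 0.13 (adjusted p = 3.17e-08). Nfkbia, the inhibitor and target of NF-kappa B, fell by 1.66 ± 0.17 (adjusted p = 1.81e-06), and Icam1, an adhesion molecule on activated endothelium, by 1.5 ± 0.20 (adjusted p = 1.65e-05). No groups overlapped among these 5. Vcam1, the other main adhesion molecule for leukocytes, was the only member that rose, ranging from 2.78 to 4.56 (median 3.95) in the saline group and from 5.32 to 6.04 (median 5.76) in the low-dose group (1.92 ± 0.28, adjusted p = 5.21e-05).

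The smaller leukocyte lists followed in part. Of the neutrophil list, 1 rose and 5 fell of 8 measured members. The calcium-binding alarmins S100a8 and S100a9 ranged from -2.98 to -1.31 (median -1.41) in the saline group and from -7.64 to -4.27 (median -6.0) in the low-dose group and from -3.09 to -1.58 (median -1.85) in the saline group and from -5.93 to -4.06 (median -5.48) in the low-dose group, respectively. They fell by 4.28 ± 0.46 (adjusted p = 2.43e-06) and 3.22 ± 0.30 (adjusted p = 6.9e-07), with 4 and 5 of 6 low-dose arrays well above background. Elane, neutrophil elastase, rose by 2.78 ± 0.51 (adjusted p = 0.000435, 7 saline arrays with a value), with a rise of 4.66 on the low-dose arrays scanned first and 1.84 on those scanned second. Of the T cell list, 2 rose and 6 fell of 12 measured members, and 1 rose and 5 fell with saline as 3 averages. Under normexp background correction 2 T cell genes rose and 3 fell. Cd52, a surface peptide of lymphocytes, ranged from -3.15 to 1.95 (median 1.03) in the saline group and from -6.92 to -5.63 (median -6.43) in the low-dose group and fell by 6.56 ± 0.78 (adjusted p = 6.73e-06). Only 1 of 6 low-dose arrays was well above background for Cd52, so the size of this fall is uncertain. Cd3g, a T cell marker, changed by 0.05 and did not pass, and the markers Cd3e and Cd2 were too dim to be tested. Il7r rose by 1.15 on its brightest probe, while its other probe changed by -3.76. Of the mast cell list, 0 rose and 4 fell of 7 measured members (median -1.04), among them Cma1, given with the angiotensin genes. Under normexp background correction 1 member of this list rose and 1 fell (median -0.06). Cpa3, the mast cell carboxypeptidase, was at least 3.41-fold lower (adjusted p = 1.08e-05, measured means -4.62 and -8.04), and it did not pass under normexp background correction.

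Complement, a cascade of serum and locally made proteins that tags and lyses cells, gave 2 rose and 14 fell of 19 measured members (median -1.68), and the same counts with saline as 3 averages. Cfb, a protease of the alternative pathway, ranged from 2.05 to 3.50 (median 2.98) in the saline group and from -0.44 to 0.67 (median 0.10) in the low-dose group and fell by 2.72 ± 0.23 (adjusted p = 2.77e-07). Cfd, adipsin, which activates Cfb and is made largely by fat, ranged from 1.13 to 4.78 (median 2.88) in the saline group and from -0.56 to 0.90 (median -0.07) in the low-dose group and fell by 3.00 ± 0.57 (adjusted p = 0.000439). Cd55, which protects host cells from the cascade, fell by 2.78 ± 0.23 (adjusted p = 2.77e-07), with a further probe at -3.12. The groups did not overlap for these 3. Cfi, factor I, an inhibitor of the cascade, ranged from -7.77 to -6.01 (median -6.34) in the saline group and from -6.11 to -0.63 (median -2.81) in the low-dose group and rose by 3.24 ± 0.74 (adjusted p = 0.00188), with a wide spread among low-dose arrays.

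The largest falls were in red cell genes. Globins and the enzymes of haem synthesis are made by red cell precursors, and blood left in a dissected vessel brings their RNA. Hbb-b1, a beta globin, ranged from 5.91 to 7.86 (median 7.42) in the saline group and from 0.36 to 2.32 (median 0.99) in the low-dose group and fell by 5.86 ± 0.37 (adjusted p = 2.68e-08). Hba-a1, an alpha globin, ranged from 5.71 to 7.56 (median 7.27) in the saline group and from 1.46 to 3.12 (median 2.06) in the low-dose group and fell by 4.68 ± 0.36 (adjusted p = 1.24e-07). Hbe2, Hbb-bs and Hbb, further globin genes of the beta cluster whose near-identical sequences probes may share, fell by 6.55 ± 0.52 (adjusted p = 1.85e-07), 6.07 ± 0.54 (adjusted p = 4.77e-07) and 4.19 ± 0.28 (adjusted p = 3.53e-08). Alas2, the first enzyme of haem synthesis in red cell precursors, ranged from -1.96 to 3.09 (median 1.99) in the saline group and from -5.45 to -3.44 (median -4.81) in the low-dose group and fell by 5.96 ± 0.81 (adjusted p = 2.5e-05). Every low-dose array lay below every saline array for these 6 genes. Of the globin and haem list, 2 rose and 11 fell of 17 measured members, and 1 rose and 11 fell with saline as 3 averages. Cpox, a later haem enzyme that other cells make too, rose by 0.93 ± 0.10 (adjusted p = 3.75e-06).

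Genes of the red cell membrane and of red cell regulation gave 0 rose and 12 fell of 17 measured members (median -1.65), and 9 falls with saline as 3 averages. Hemgn, a nuclear protein of red cell precursors, was well above background on 8 of 8 saline and no low-dose arrays, and was at least 62.5-fold lower (adjusted p = 2.41e-06, measured means -0.42 and -7.53). Add2, an adducin of the red cell skeleton, was at least 36.1-fold lower on the same pattern (adjusted p = 1.77e-06, measured means -1.21 and -7.85). Car2, carbonic anhydrase 2, ranged from -0.41 to 3.17 (median 2.32) in the saline group and from -4.56 to -3.79 (median -4.31) in the low-dose group and fell by 6.12 ± 0.56 (adjusted p = 5.9e-07). Slc4a1, the anion exchanger band 3, ranged from -4.15 to 0.22 (median -0.57) in the saline group and from -5.60 to -4.07 (median -4.75) in the low-dose group and fell by 3.51 ± 0.70 (adjusted p = 0.000661). Saline arrays 3 and 7 were the lowest saline arrays for each of Hbb-b1, Alas2, Car2 and Slc4a1, and only for Slc4a1 did they reach the low-dose range.

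Fat surrounds the thoracic aorta, and the saline arrays differed among themselves in fat genes. Adipoq, adiponectin, stood at 2.05, 4.31, 6.22, 3.58, 2.06, 4.36, 6.27 and 5.55 on saline arrays 1 to 8 and at 2.32, 3.83, 2.61, 1.41, 2.49 and 1.84 on low-dose arrays 1 to 6. Saline arrays 3, 7 and 8 were the highest, and arrays 1 and 5 were as low as the low-dose arrays. The fall by 1.88 ± 0.68 (adjusted p = 0.029) was lost with saline as 3 averages, without saline arrays 3 and 7, and with scan day as a random block. Ucp1, the uncoupling protein that defines brown fat, ranged from 0.25 to 6.91 (median 3.25) in the saline group and from -0.62 to 3.24 (median 1.45) in the low-dose group and did not pass (-2.40 ± 1.00, adjusted p = 0.0534). It did pass as lower in 8 alternative settings, among them quantile normalisation, normexp background correction, the authors' deposited table and 1 fit over all 26 arrays (-2.40, adjusted p = 0.0272). Without saline arrays 1 and 5, the lowest saline arrays for Adipoq, it stood at -3.37. Ucp1 did not pass with saline as 3 averages (-2.17, adjusted p = 0.144) or without saline arrays 3 and 7 (-1.44, adjusted p = 0.158). Cidec, a lipid droplet protein of fat cells, ranged from -3.61 to 1.19 (median -0.84) in the saline group and from -5.81 to -3.88 (median -4.77) in the low-dose group and fell by 3.89 ± 0.73 (adjusted p = 0.000413), without overlap. Pck1, an enzyme of glycerol synthesis in fat, ranged from -1.50 to 5.24 (median 1.11) in the saline group and from -3.54 to -0.91 (median -2.64) in the low-dose group and fell by 4.2 ± 1.04 (adjusted p = 0.00327). Of the white adipocyte list, 0 rose and 15 fell of 21 measured members (median -1.91), but 8 fell with saline as 3 averages and 12 fell without saline arrays 3 and 7. Of the brown adipocyte list, 0 rose and 3 fell of 12 measured members. Cidea and Elovl3, markers of brown fat beside Ucp1, each changed by -0.66 and did not pass. A further Cidea probe changed by -2.44 (adjusted p = 0.0188).

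**Figure D5:**
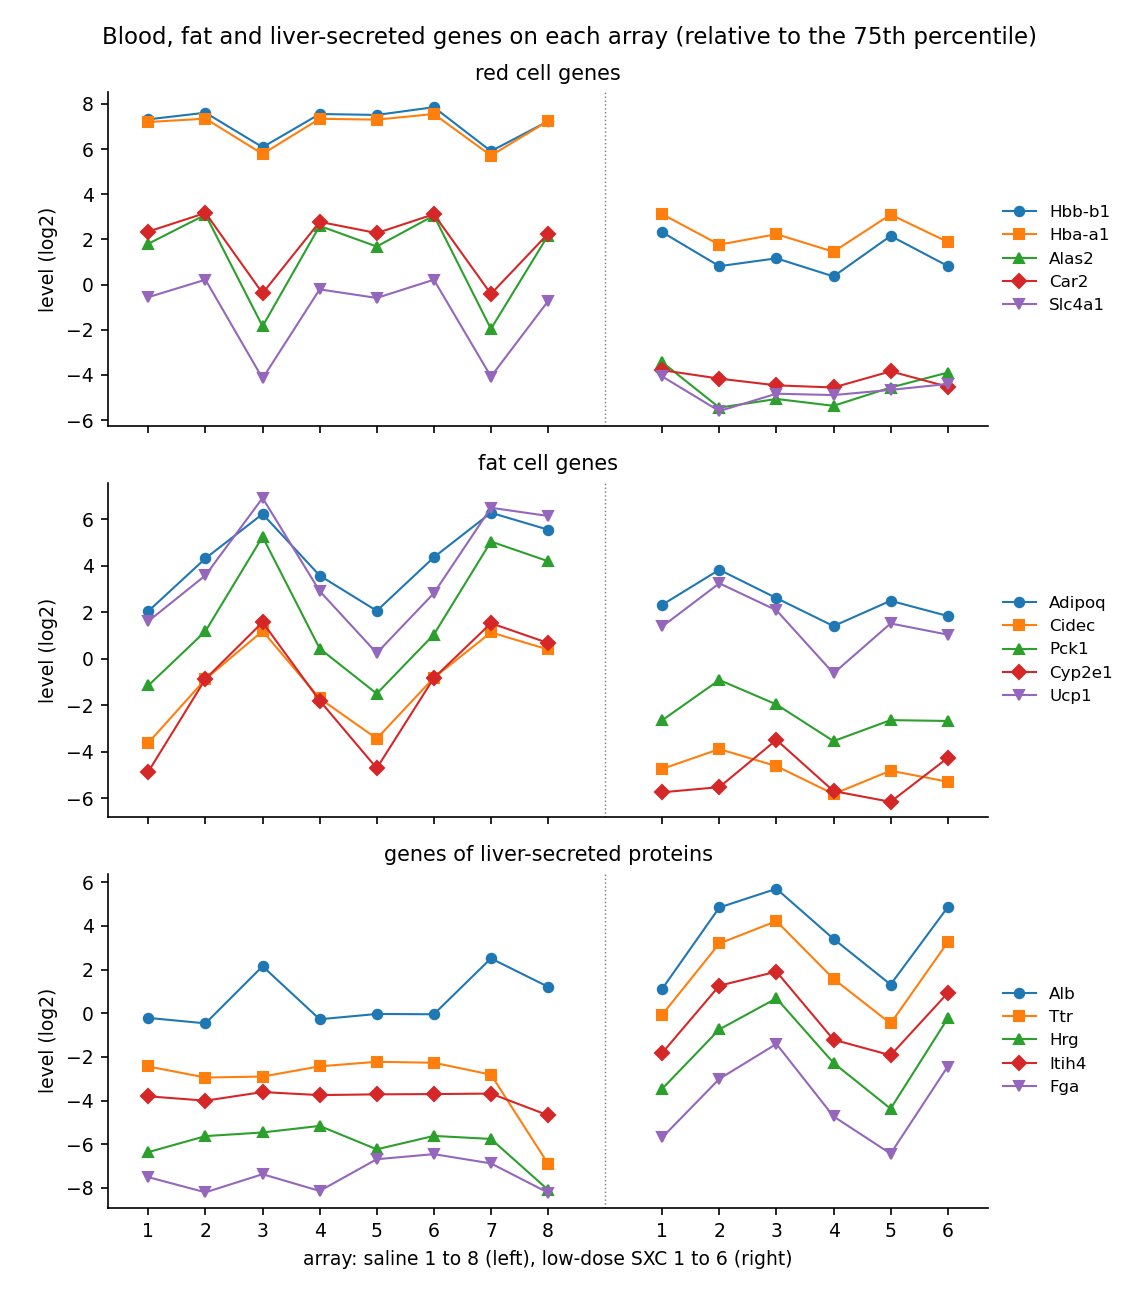
Levels (log2 signal relative to the array's 75th percentile) of red cell, fat cell and liver-secreted genes on saline arrays 1 to 8 and low-dose arrays 1 to 6; lines join arrays for reading only, and levels of different genes are not comparable. Red cell genes are lower on every low-dose array than on any saline array except Slc4a1, fat genes vary most among saline arrays, and liver-secreted genes rise and fall together over the low-dose arrays.

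Fatty acid oxidation, the mitochondrial pathway on which brown fat and muscle run, moved with the fat genes: 0 rose and 12 fell of 24 measured members (median -1.18). Acaa2, the last enzyme of the cycle, ranged from -0.66 to 4.03 (median 0.91) in the saline group and from -2.13 to -0.75 (median -1.81) in the low-dose group and fell by 3.16 ± 0.74 (adjusted p = 0.00231). Eci1, an isomerase of the same pathway, ranged from 1.12 to 4.5 (median 2.06) in the saline group and from -0.08 to 0.35 (median 0.06) in the low-dose group and fell by 2.50 ± 0.54 (adjusted p = 0.00112). Both are high on the saline arrays that are high in fat genes, and the part of fat in these falls was not tested. Of 39 oxidative phosphorylation genes 11 fell and 4 rose, and without saline arrays 3 and 7 there were 9 falls and 10 rises. Atp5f1b, the catalytic beta subunit of the ATP synthase, ranged from 2.01 to 5.08 (median 2.84) in the saline group and from 1.2 to 1.53 (median 1.31) in the low-dose group and fell by 2.03 ± 0.44 (adjusted p = 0.00125). Sdhb, a subunit of succinate dehydrogenase, fell by 1.64 ± 0.48 (adjusted p = 0.00971). Ndufc2, a subunit of complex I, ranged from 3.32 to 3.50 (median 3.4) in the saline group and from 4.25 to 4.52 (median 4.35) in the low-dose group and rose by 0.95 ± 0.06 (adjusted p = 2.5e-08).

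Genes that respond to glucocorticoids were lower in 12 of 20 measured members and higher in 1 (median -1.09), with 10 and 1 when saline was taken as 3 averages. The metallothioneins, small proteins that bind zinc and copper and are induced by metals and glucocorticoids, fell most. Mt1 ranged from 4.16 to 5.02 (median 4.69) in the saline group and from 1.07 to 1.98 (median 1.43) in the low-dose group and fell by 3.15 ± 0.16 (adjusted p = 3.95e-09). Mt2A ranged from 5.30 to 6.48 (median 6.04) in the saline group and from 2.97 to 4.08 (median 3.29) in the low-dose group and fell by 2.58 ± 0.21 (adjusted p = 2.22e-07), with -2.98 on a further probe. Tsc22d3, the glucocorticoid-induced leucine zipper, ranged from 3.04 to 4.64 (median 3.88) in the saline group and from 0.95 to 1.88 (median 1.09) in the low-dose group and fell by 2.63 ± 0.25 (adjusted p = 9.02e-07). The groups of these 3 did not overlap. Fkbp5, a chaperone of the glucocorticoid receptor and a sensitive target of it, ranged from 2.21 to 3.74 (median 2.79) in the saline group and from -0.78 to 2.28 (median 0.36) in the low-dose group and fell by 2.34 ± 0.44 (adjusted p = 0.0004), with overlap. Hif3a, which can also be induced by glucocorticoids, was the single rise, at 1.18 ± 0.23 (adjusted p = 0.000514), 1.94 on the low-dose arrays scanned first and 0.80 on those scanned second.

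Antioxidant enzymes and ferritins gave 2 rose and 19 fell of 26 measured members (median -0.82), and 17 falls with 1 rise when saline was taken as 3 averages. Prdx2, a peroxiredoxin abundant in red cells, ranged from 2.70 to 3.63 (median 3.18) in the saline group and from 1.15 to 1.46 (median 1.33) in the low-dose group and fell by 1.85 ± 0.14 (adjusted p = 1.28e-07). Cat, catalase, also abundant in red cells and in fat, ranged from -2.39 to -0.33 (median -1.45) in the saline group and from -3.28 to -3.07 (median -3.20) in the low-dose group and fell by 1.79 ± 0.32 (adjusted p = 0.000244). Ftl1, ferritin light chain, which stores iron, ranged from 5.74 to 6.27 (median 6.17) in the saline group and from 4.97 to 5.22 (median 5.08) in the low-dose group and fell by 1.01 ± 0.09 (adjusted p = 4.55e-07). Targets of the antioxidant regulator Nrf2 were lower too: Nqo1 fell by 1.15 ± 0.12 (adjusted p = 2.9e-06) and Gclc, which starts glutathione synthesis, by 0.59 ± 0.09 (adjusted p = 9.95e-05). No groups overlapped among these 5. Sod2, the superoxide dismutase of mitochondria, rose by 0.64 ± 0.11 (adjusted p = 0.000245). The part of blood in the falls of Prdx2 and Cat was not tested. Xdh, xanthine oxidoreductase, a source of urate and of superoxide, ranged from -0.11 to 0.96 (median 0.66) in the saline group and from -3.54 to -3.12 (median -3.50) in the low-dose group and fell by 3.91 ± 0.17 (adjusted p = 1.41e-09). It was 1 of the 15 largest falls among genes measured on every array.

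The proteasome, the complex that degrades tagged proteins, gave 5 rose and 14 fell of 25 measured members, and 4 and 11 with saline as 3 averages. Psmc1 and Psmc3, ATPases of its cap, ranged from 1.59 to 1.80 (median 1.66) in the saline group and from 0.16 to 0.53 (median 0.28) in the low-dose group and from 0.82 to 1.04 (median 0.91) in the saline group and from -0.67 to -0.41 (median -0.51) in the low-dose group, respectively. Their falls by 1.38 ± 0.07 (adjusted p = 5.3e-09) and 1.45 ± 0.07 (adjusted p = 2.98e-09) were several times the spread within either group. Psmd8, another cap subunit, fell by 1.45 ± 0.12 (adjusted p = 3.4e-07). Psmc5, a further ATPase of the same ring, ranged from 3.31 to 4.21 (median 3.56) in the saline group and from 4.30 to 4.54 (median 4.44) in the low-dose group and rose by 0.73 ± 0.14 (adjusted p = 0.00042). The members of 1 ring thus moved in opposite directions, each measured by a single tested probe. Heat shock proteins and chaperones gave 5 rose and 5 fell of 23 measured members, and 4 rose and 3 fell with saline as 3 averages. Hspa4 rose by 1.19 ± 0.10 (adjusted p = 3.08e-07) and Hsp90aa1 by 1.00 ± 0.20 (adjusted p = 0.000583), with further Hsp90aa1 probes at 0.83 and 0.61, whereas Hspa9, the mitochondrial chaperone, fell by 1.49 ± 0.25 (adjusted p = 0.000184).

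Cholesterol synthesis genes moved in both directions, 10 rose and 8 fell of 25 measured members. Cells raise this pathway through Srebf2 when sterol is short. Sqle, an oxygenase of the sterol pathway, ranged from -1.75 to -0.34 (median -0.37) in the saline group and from 1.16 to 2.11 (median 1.77) in the low-dose group and rose by 2.42 ± 0.25 (adjusted p = 1.74e-06). Idi1, an isomerase earlier in the pathway, ranged from -1.07 to 0.24 (median -0.20) in the saline group and from 1.39 to 2.98 (median 2.25) in the low-dose group and rose by 2.56 ± 0.28 (adjusted p = 2.62e-06). Msmo1, a later oxidase, rose by 1.99 ± 0.20 (adjusted p = 1.39e-06), and Srebf2 itself by 0.89 ± 0.13 (adjusted p = 3.11e-05). No groups overlapped among these 4. Other members of the pathway fell, among them the synthase Fdps, by 0.86 on its brightest probe, with another probe at -0.36. Insig1, a target of Srebf2 that restrains it, fell by 1.12 ± 0.26 (adjusted p = 0.00207). Abca1, which exports cholesterol and rises when sterol is plentiful, ranged from -2.53 to -2.38 (median -2.46) in the saline group and from -5.45 to -4.68 (median -5.18) in the low-dose group and fell by 2.65 ± 0.12 (adjusted p = 1.44e-09).

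The circadian clock runs in the vessel wall as a loop of activators and repressors, and its phase depends on the hour of collection, which is unknown. The list gave 7 rose and 6 fell of 18 measured members, against the same background. The repressors Per2 and Cry1 ranged from 1.01 to 1.52 (median 1.18) in the saline group and from -0.02 to 0.47 (median 0.18) in the low-dose group and from -1.17 to -0.31 (median -0.88) in the saline group and from -3.36 to -2.59 (median -2.95) in the low-dose group, respectively. They fell by 1.00 ± 0.11 (adjusted p = 2.33e-06) and 2.18 ± 0.16 (adjusted p = 7.45e-08). Tef, an output gene, fell by 1.21 ± 0.13 (adjusted p = 2.67e-06). Dbp, the most rhythmic of the outputs, ranged from 1.1 to 2.93 (median 2.28) in the saline group and from 1.67 to 2.77 (median 2.27) in the low-dose group and did not pass (0.13 ± 0.29, adjusted p = 0.726), with other probes at -0.29 and -0.44. The activator Bmal1 did not pass either (0.29 ± 0.24, adjusted p = 0.312), but did without saline arrays 2 and 6, at 0.54. Nr1d1, the repressor of Bmal1, ranged from -4.81 to -3.99 (median -4.14) in the saline group and from -3.85 to -2.51 (median -3.59) in the low-dose group and rose by 0.98 ± 0.24 (adjusted p = 0.00327), a call lost with saline as 3 averages. Csnk1e, a kinase that marks Per proteins for decay, rose by 2.71 ± 0.40 (adjusted p = 4.59e-05), with other probes at 2.13 and 0.31.

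Immediate early genes, which cells switch on within minutes of a stimulus or of handling, gave 5 rose and 9 fell of 23 measured members, 3 and 5 with saline as 3 averages, and 2 and 7 without saline arrays 3 and 7. Nr4a3, a nuclear receptor of this class, ranged from 0.36 to 3.02 (median 1.84) in the saline group and from 3.95 to 5.07 (median 4.36) in the low-dose group and rose by 2.68 ± 0.42 (adjusted p = 8.33e-05). Zfp36, which degrades cytokine transcripts, ranged from 0.60 to 1.81 (median 0.99) in the saline group and from -1.44 to -0.21 (median -0.84) in the low-dose group and fell by 1.98 ± 0.23 (adjusted p = 4.62e-06), and Myc, a growth regulator, fell by 1.53 ± 0.16 (adjusted p = 1.73e-06). Genes for handling foreign compounds, of interest because SXC is a mixture of plant compounds, gave 6 rose and 9 fell of 23 measured members, and 3 rose and 5 fell with saline as 3 averages. Cyp1a1, the main target of the aryl hydrocarbon receptor, ranged from -7.06 to -0.56 (median -6.22) in the saline group and from -4.57 to -2.63 (median -3.98) in the low-dose group and did not pass (1.41 ± 0.89, adjusted p = 0.193), with 4 of 8 saline arrays well above background. It passed as higher with the replicate block (2.31, adjusted p = 0.00653), without saline array 7 (2.07) and without saline arrays 3 and 7 (2.48). Saline array 7 does not inform the change in any of these settings, so they are not separate checks. Cyp1b1, another target, ranged from -4.54 to -2.10 (median -3.32) in the saline group and from -5.51 to -0.74 (median -5.04) in the low-dose group and did not pass (-0.45 ± 0.79, adjusted p = 0.653). Its low-dose arrays fell into the scan days, with a change of 2.42 on the arrays scanned first and -1.88 on those scanned second, of opposite sign. Abcc2, an export pump, ranged from -5.63 to -5.12 (median -5.30) in the saline group and from -3.81 to -3.15 (median -3.63) in the low-dose group and rose by 1.81 ± 0.13 (adjusted p = 7.92e-08). Sult1a1, a sulphotransferase, ranged from 4.40 to 4.64 (median 4.54) in the saline group and from 3.29 to 3.57 (median 3.35) in the low-dose group and fell by 1.12 ± 0.07 (adjusted p = 2.36e-08). Cyp2e1, high in liver and fat, ranged from -4.84 to 1.57 (median -0.85) in the saline group and from -6.14 to -3.48 (median -5.60) in the low-dose group and fell by 3.98 ± 1.00 (adjusted p = 0.00363), with its highest saline values on the arrays high in fat genes. In glycolysis, Pfkl, a liver-type phosphofructokinase, rose by 2.63 ± 0.36 (adjusted p = 2.79e-05), with another probe at 0.48.

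Proteins that the liver secretes formed a group of rises that varied together over the low-dose rats. Of the list of liver-secreted and thyroid genes, 8 rose and 1 fell of 17 measured members (median 1.12), but 3 rose with saline as 3 averages and 6 without saline arrays 3 and 7. Alb, albumin, stood at -0.21, -0.46, 2.16, -0.27, -0.03, -0.04, 2.52 and 1.22 on saline arrays 1 to 8 and at 1.12, 4.85, 5.71, 3.41, 1.32 and 4.86 on low-dose arrays 1 to 6. Low-dose arrays 1 and 5 lay within the saline range, and the rise of 2.94 ± 0.76 (adjusted p = 0.00434) was lost with saline as 3 averages (adjusted p = 0.0531). Ttr, transthyretin, stood at -0.06, 3.20, 4.22, 1.58, -0.47 and 3.25 on the low-dose arrays against -6.89 to -2.22 (median -2.62) in saline, a rise of 5.07 ± 0.84 (adjusted p = 0.000144). Hrg, a plasma glycoprotein, stood at -3.46, -0.74, 0.69, -2.27, -4.37 and -0.24 against -8.09 to -5.16 (median -5.69), a rise of 4.31 ± 0.71 (adjusted p = 0.00014). Low-dose array 3 was the highest and arrays 1 and 5 the lowest for Alb, Ttr and Hrg. Fga, a fibrinogen chain, was well above background on no saline array and on all 6 low-dose arrays, and was at least 5.69-fold higher (adjusted p = 0.0006, measured means -7.43 and -3.95). The fall in the list was Tshr, the thyrotropin receptor, which fat cells also carry, by 3.16 ± 0.21 (adjusted p = 4.32e-08).

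Hox genes, which record position along the body, gave 6 rose and 0 fell of 11 measured members (median 0.54), and 4 rises with saline as 3 averages. Hoxb3 was well above background on no saline array and on all 6 low-dose arrays, and was at least 2.29-fold higher (adjusted p = 0.000302, measured means -7.20 and -5.23). Hoxc12 ranged from -8.81 to -4.25 (median -8.31) in the saline group and from -4.41 to -2.64 (median -2.93) in the low-dose group and rose by 4.70 ± 0.61 (adjusted p = 1.52e-05), with 1 of 8 saline arrays well above background, saline array 2, which lay within the low-dose range.

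Among genes measured on every array, the 15 largest rises held few genes of vascular cells. The first was Isl2, a homeobox gene of motor neurons, which ranged from -5.97 to -4.45 (median -5.52) in the saline group and from -2.30 to 1.46 (median -0.69) in the low-dose group and rose by 4.67 ± 0.45 (adjusted p = 9.58e-07). Psd2, an exchange factor of neurons, ranged from -4.10 to 1.31 (median -0.08) in the saline group and from 2.91 to 4.00 (median 3.76) in the low-dose group and rose by 4.5 ± 0.77 (adjusted p = 0.000185). Neither gene's groups overlapped. Itih4, a plasma protein of the liver, rose by 3.73 ± 0.56, and the signalling proteins Wnt3 and Ihh by 3.62 ± 0.28 and 3.23 ± 0.38 (adjusted p = 5.55e-05, 1.58e-07 and 6.44e-06). Mcf2l, an exchange factor, rose by 3.95 ± 0.51 (adjusted p = 1.52e-05) on its brightest probe, while its other probes changed by -1.76 and -0.42. Aak1, a kinase of endocytosis, rose by 3.89 ± 0.86 (adjusted p = 0.00139), with another probe at 0.03. Ncstn, nicastrin, a subunit of gamma-secretase, rose by 3.29 ± 0.54 (adjusted p = 0.000137), with another at -0.04. Pou2af1, a B cell coactivator, rose by 3.28 ± 0.29 (adjusted p = 4.74e-07), with another at -0.38. Of the 15, these 4 each had a further tested probe that did not share the rise, and 1, Fam161a, a cilium gene, had one that did (1.51 beside 3.35 ± 0.40, adjusted p = 7.5e-06).

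The remaining rises were the olfactory receptors Or8g36c (3.79 ± 0.74, adjusted p = 0.000565) and Or8c10b (3.56 ± 0.40, adjusted p = 3.64e-06), the taste receptor Tas2r116 (3.79 ± 0.47, adjusted p = 1.04e-05), the glutamate receptor subunit Grin2c (3.4 ± 0.47, adjusted p = 2.99e-05) and Arvcf, a catenin (3.18 ± 0.34, adjusted p = 2.41e-06), each on a single tested probe. Tas2r116, Fam161a, Wnt3 and Arvcf were higher on the low-dose arrays scanned first than on those scanned second, with rises of 5.64 and 2.87, 4.81 and 2.63, 4.68 and 3.09, and 4.31 and 2.62. Besides the globin, haem, fat, interferon, chymase and oxidase genes given above, the 15 largest falls held Hist3h2ba, a histone, Rnls, renalase, and Pla2g2a, a secreted phospholipase. Hist3h2ba ranged from -3.20 to 0.98 (median -0.04) in the saline group and from -5.02 to -4.61 (median -4.83) in the low-dose group and fell by 4.36 ± 0.61 (adjusted p = 3.31e-05). Rnls, an oxidase, fell by 4.29 ± 0.66 (adjusted p = 6.74e-05), and Pla2g2a, which is induced in inflammation, by 3.94 ± 0.53 (adjusted p = 2.2e-05). None overlapped.

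The 6 low-dose arrays were not uniform. Arrays 1 and 6 were scanned first and arrays 2 to 5 were scanned 6 days later, and 3861 probes (16.8%) differed between these scan days within the low-dose group, 3819 higher on the first day (16.6%) and 42 lower (0.183%). Against saline, the first 2 arrays alone gave 6258 rises (27.3%) and 3619 falls (15.8%), and the other 4 gave 5473 rises (23.9%) and 6011 falls (26.2%). Among the falls named above, some were of like size on both days, such as Angpt1 (-2.41 and -2.34), Icam2 (-3.88 and -3.60), Mt1 (-3.22 and -3.12), Hbb-b1 (-5.56 and -6.01) and Xdh (-3.67 and -4.03), and some were not, such as Ifit3 (-2.77 and -3.67). Rises such as Csnk1e (4.25 and 1.94) and Hey1 were larger on the first day. Scan day and rat cannot be told apart within the low-dose group.

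The values with SXC at 708.75 mg/kg and with valsartan are set beside the low-dose values. These comparisons share the saline arrays, so that a deviation of saline appears in all of them. The high-dose and valsartan groups also hold arrays scanned at a lower detector gain, whose part in the values was not tested. The differences between treatments were not tested here either. Some genes named above had like values in all 3 comparisons, such as Angpt1 (-2.36 ± 0.13 at the low dose, -2.76 at the high dose and -2.57 with valsartan), Il6 (-3.24 ± 0.13, -2.30 and -2.66) and Hbb-b1 (-5.86 ± 0.37, -6.23 and -7.11). Some low-dose values stood farther from 0. Xdh changed by -3.91 ± 0.17 at the low dose, -2.20 at the high dose and -2.07 with valsartan, and Ednra by 1.30 ± 0.15, 0.35 and -0.28. Arvcf changed by 3.18 ± 0.34, 1.52 and 0.48, and Id3 by 1.33 ± 0.26, 0.12 and -0.38. Of the clock genes, Dbp and Bmal1 stood nearer to 0 at the low dose and Tef farther from it. Dbp changed by 0.13 ± 0.29, 1.58 and 2.70, Bmal1 by 0.29 ± 0.24, -1.30 and -4.07, and Tef by -1.21 ± 0.13, -0.34 and 0.83.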

How the data were processed

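Total RNA of each thoracic aorta was labelled with Cy3 and hybridised to 1-colour Agilent arrays, per the labels' protocols. The authors deposited the scanner intensity of every spot, extracted with Agilent Feature Extraction 11.0.1.1 per the submitters' processing notes, and a table of log2 values whose 14 columns each matched their own array best (lowest rho 0.998). Here spots marked as outliers were left out, spots of a probe were averaged, and log2 processed signal minus the array's 75th percentile over gene spots was used. A probe entered the test, made with limma 3.58.1 in R 4.3.3, if 6 or more of the 14 arrays measured it well above background. The fit had a mean-variance trend and Benjamini-Hochberg adjustment over 22946 of 30367 probes. Probe accessions were matched to RefSeq symbols (GRCr8): 18005 probes had 1 symbol, 12362 none and 0 several. The array annotation names an older build, so no coordinate of the files was used.

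Genes named are the 15 largest rises and falls measured on all 14 arrays, up to 5 members of the smallest p in each direction of 52 lists, and a fixed set of vascular, clock, blood, fat and sterol genes. Some genes that this rule selects are not reported here. The members and lists were chosen with earlier results of these data known. Alternatives were quantile, median and normexp processing, the authors' table, other filters, all 26 arrays, blocks for slide, scan day and replicate number, and leaving out arrays. A low-dose or saline array with no value for a probe was dropped for that probe (249 tested probes), as stated beside the genes concerned.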

Additional observations from a re-analysis of the deposited data

Results flagged for a closer look

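Levels of 216 genes were examined in both groups, 432 sets of arrays, for an array that stood apart by Dixon's ratio. An array did so in 22 sets (5.09%), and no explanation was weighed. The sets share the same arrays, so this percentage cannot be read against a chance rate. The ratio looks for 1 lone array, so arrays that stand apart together, such as saline arrays 3 and 7, can go unflagged. Low-dose array 2 was the array that stood apart in 11 of the 22 sets. It was low for Acta2 (5.63), Timp4 (-2.73), Hoxc12 (-4.41), Mcf2l (-0.064), Aak1 (2.27) and Grin2c (-0.15). It was high for Col4a1 (5.67), Gbp5 (0.69), Acaa2 (-0.75), Sdhb (1.99) and Myc (0.57). Low-dose array 3 was high for Ednrb (-4.83) and Adra1d (2.02), low-dose array 4 for Fap (-3.31) and Nqo1 (-3.68), and low-dose array 1 for Ifit3 (-2.71). Saline array 8 was low for Cfi (-7.77), Ttr (-6.89), Hrg (-8.09) and Itih4 (-4.67). Saline array 2 was high for Hoxc12 (-4.25) and saline array 4 for Fam161a (-1.48).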

How the results depend on the processing

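The count of 12714 probes stayed within 1.5 times of this value under every alternative run, from 9226 in 1 fit over all 26 arrays to 13771 without the filter on dim probes. Leaving out 1 array gave 11900 to 12880. Rises and falls taken separately stayed within the same bound except the falls on the first low-dose scan day alone, 3619 against 6002, where 2 arrays entered. This setting, the second scan day alone and the percentile over probes counted once were chosen after seeing the data. The share of passing probes that were higher was 52.8%, and it was 68.3% under normexp background correction and 63.4% on the first scan day alone. Replicate numbers do not pair rats: their correlations ran from -0.24 to 0.16, only 1 low-dose array matched its own number best, and a fit with the replicate block gave 11278 probes. Of 216 named genes, 28 lost their call on the first low-dose scan day alone, 6 on the second (1 gained), 7 with scan day as a random block, 6 with the 3 saline averages and 2 under normexp (1 gained), and without saline arrays 3 and 7 there were 2 lost and 6 gained. Cyp1b1 was the only one that reversed, at 2.42 on the first scan day alone. Because no day held both groups, calls kept with scan day as a random block are no check on scan day. Spike-in and detection differences kept their side of the threshold without any 1 array. Dim probes, such as Tek, Tie1 and Dkk2 on low-dose arrays, have a fall whose size depends on the background correction (Tek -1.45 under normexp).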

Other observations

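The lists not described above read as follows against the background of 29.6% higher and 27.8% lower, or 21.8% and 22% with saline as 3 averages. Of 53 ribosomal protein genes 22 rose and 11 fell (median 0.13), and with saline as 3 averages 17 rose and 7 fell. Of 24 cell cycle genes 7 rose and 4 fell, of 20 nerve and Schwann cell genes 5 rose and 3 fell, and of 25 citric acid cycle and glycolysis genes 6 rose and 6 fell. With saline as 3 averages these 3 lists gave 5 and 2, 4 and 2, and 4 and 3. NADPH oxidase genes, a source of superoxide in vessels, gave 5 rose and 3 fell of 11 measured members, but 2 rose and 3 fell with saline as 3 averages. Contraction control genes gave 4 rose and 5 fell of 13 measured members, and 3 of each with saline as 3 averages. Matricellular proteins and proteoglycans gave 2 rose and 4 fell of 17 measured members, and 2 rose and 7 fell without saline arrays 3 and 7. Skeletal muscle genes gave 6 rose and 2 fell of 14 measured members, while the defining markers Ckm and Acta1 did not pass. Cardiac muscle genes gave 2 rose and 1 fell of 6 measured members, and B cell genes 1 rose and 1 fell of 3 measured members. Of 14 genes often used as references 4 rose (28.6%) and 6 fell (42.9%), and 2 rose and 5 fell with saline as 3 averages.

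Other promoter elements were searched in the same windows. The letters AGATAA were in 2 of 15 globin and haem promoters and 4 of 12 red cell promoters, against 11.3% of all promoters. CACGTG was in 3 of 15 clock promoters against 6.65%. TGCNCNC, the metal response element, was in 10 of 18 promoters of glucocorticoid targets against 50.1%. That list holds the metallothioneins, and the element of the glucocorticoid receptor itself was not searched. TGACNNNGC was in 6 of 20 antioxidant promoters against 12.2%.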
